A study of Homo sapiens with 4 samples.

Results

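Enzymes that make sterols and fatty acids were followed in Panc1, an established cell line from a human pancreatic ductal carcinoma. The set held 33 of the 54628 genes counted, taken by matching gene symbols to a named list: 20 genes of the sterol pathway (18 enzymes with the sterol carrier STARD4 and the sterol-regulated membrane protein TMEM97) and 13 genes of fatty acid synthesis. Poly(A) RNA was sequenced in 4 libraries, of which the labels put 2 in a group that received HMGB2 siRNA, a short RNA meant to silence HMGB2, whose product binds and bends DNA in chromatin. The other 2 are labelled scramble, a control RNA. All 4 came from the same cell line and received an siRNA. Dose, time of harvest and separate cultures are not stated in the labels, so the p-values rest on library-to-library spread alone, and that spread may be technical.

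Sterols are built from acetyl-CoA. The mevalonate steps make isoprenoid units, these are joined to squalene, squalene is closed to the ring compound lanosterol, and lanosterol is trimmed and reduced to cholesterol. Fatty acids start from the same acetyl-CoA, which is carboxylated, condensed to palmitate, and then elongated, desaturated and activated to acyl-CoA. The transcription factors SREBP-1 and SREBP-2 (genes SREBF1 and SREBF2) drive genes of both pathways when membrane sterol is low, and the factor NF-Y, which binds the letters CCAAT, often assists them.

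The targeted gene went against the labels. HMGB2 (GRCh38 chromosome 4, 173331376 to 173334358, minus strand) was counted 4021 and 2746 times under the HMGB2 siRNA label and 346 and 319 times under the scramble label, a log2 fold change of 3.07 ± 0.08 (SE, adjusted p = 1.54e-33). The headers of the count columns also name the other treatment in all 4 tables. Groups are called below by their labels, and directions run from the libraries labelled scramble, which are HMGB2-low, to those labelled HMGB2 siRNA, which are HMGB2-high. Library totals were 31852391 and 20976561 counts (HMGB2 siRNA label) and 21874647 and 20340695 counts (scramble label). A count of 0 in a library still allowed 3 counts of its total, or 0.0942 to 0.147 CPM (read counts scaled to library size), for counting error only. Epithelial and mesenchymal markers were both present. The 6 keratin and other epithelial genes summed to 4552 to 4606 CPM in the HMGB2-high and 3271 to 4193 CPM in the HMGB2-low libraries. The 3 mesenchymal genes, mostly VIM, summed to 2396 to 2525 CPM against 2204 to 2276 CPM. CDKN2A, which is deleted in Panc1, had no reads. Insulin, glucagon and somatostatin genes, the fat cell genes ADIPOQ and LEP and the liver gene ALB had no reads either. The fat cell gene PLIN1 had 12 to 16 counts per library and the liver gene APOA1 2 to 8, while the macrophage gene CD68 and the collagen gene COL1A1, which carcinoma lines can express, had reads in every library. The epithelial gene CDH1 was higher in the HMGB2-high libraries, with 19.6 and 20.5 against 8.9 and 8.4 CPM. KRT8, KRT19 and KRT7 were also called higher, while KRT18 and EPCAM were not called. Of the mesenchymal genes only CDH2 was called higher, with 12.1 and 10.6 against 9.22 and 7.73 CPM (adjusted p = 0.0141). VIM was not called, and neither was ZEB1, which lay the other way with 36.6 and 34.9 against 36.9 and 41.2 CPM. Mitochondrial genes took 4.43% and 4.69% of counts against 5.25% and 5.36%. The part that these shifts play in the results below was not tested. In RNA from whole cultures, fewer cells that express a gene and less RNA of it per cell cannot be told apart.

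All 33 genes passed the filter on low counts. Of the 20 sterol genes, 15 were called lower in the HMGB2-high libraries (HMGB2 counts 4021 and 2746), 1 was called higher and 4 were not called. A call is an adjusted p under 0.05 in edgeR's quasi-likelihood test. The same test called 14.1% of all 15161 tested genes lower and 16.7% higher, so the 75.0% of sterol genes called lower stood above that background and the 1 of 20 called higher below it. Of the 13 fatty acid genes, 3 were called lower, 3 higher and 7 were not called, or 23.1% in each direction. Medians of the log2 fold change were -0.31 over the sterol genes, -0.07 over the fatty acid genes and -0.01 over all tested genes. The difference between the pathways was not tested. Both HMGB2-high libraries lay below both HMGB2-low libraries for 15 sterol and 5 fatty acid genes, an order found for 31.6% of all tested genes, and above them for 3 sterol and 4 fatty acid genes, an order found for 32.0%. The balance of directions over all genes depended on scaling: 54.3% of all calls were higher with TMM scaling, 42.0% by upper-quartile factors and 43.3% by total counts. The sterol count stayed at 15 lower and 1 higher under these 3 scalings. Without replicate 1 labelled HMGB2 siRNA, the deepest library, 8 sterol genes were called lower and 0 higher, when 5.70% of all genes were called lower. Without scramble replicate 1, which leaves 1 library with that label, the median over the sterol genes was -0.34.

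**Figure D1:**
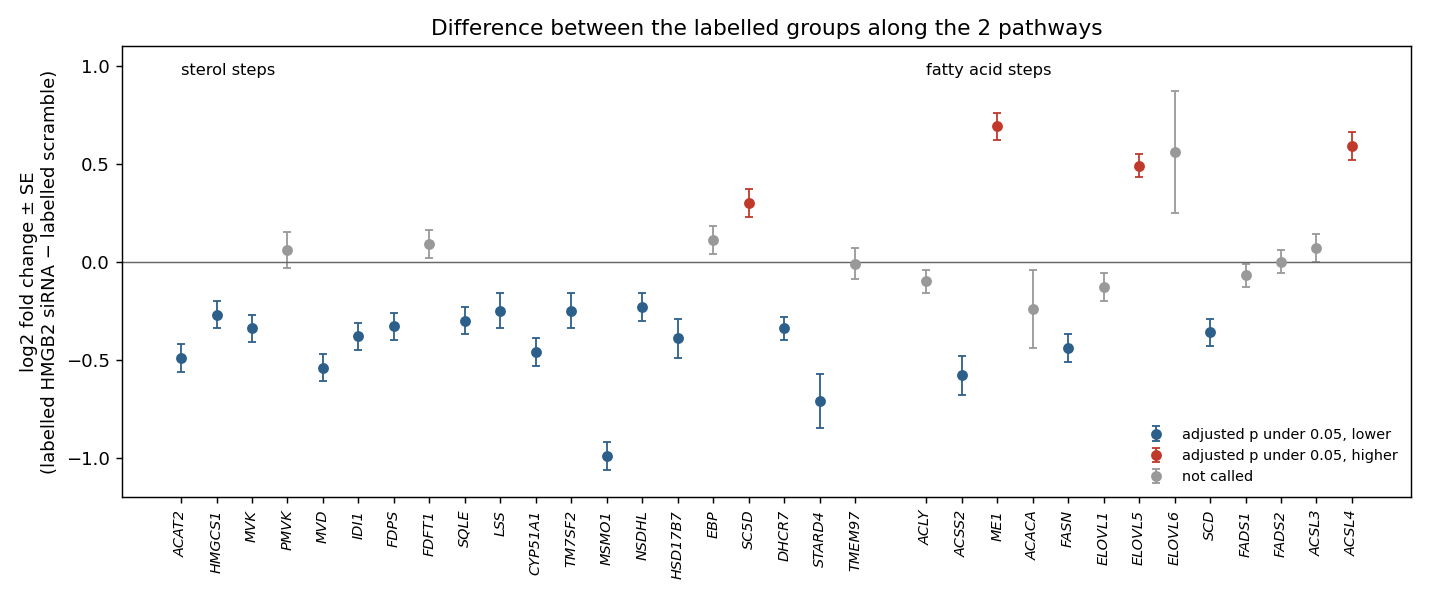
Log2 fold change with its standard error (edgeR, 2 libraries per group) for each gene in pathway order, as labelled HMGB2 siRNA minus labelled scramble. Filled blue points (15 sterol, 3 fatty acid) were called lower, red points (1 sterol, 3 fatty acid) higher and grey points were not called.

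Promoter letters are shown for 4 genes, 2 that fell in the HMGB2-high libraries and 2 that rose, because CCAAT letters were common before the sterol genes. RefSeq promoter windows (GRCh38.p14, 250 bases before to 50 after a start site) matched 29 of the 33 genes. ACAT2, FASN, SQLE and FDFT1 had no window matched by symbol, so their letters were not searched. The letters CCAAT, on either strand, stood in a window of 15 of 17 matched sterol genes (88.2%) and 8 of 12 matched fatty acid genes (66.7%), against 42.3% of 11136 tested genes with a window. The letters GGGCGG of a Sp1 box stood in 94.1% and 91.7%, against 76.6% of tested genes. The sterol response letters CACCCCAC and TCACNCCAC, which can overlap, stood in none of the 29, and either of them stood in 4.56% of tested genes. Other forms of the element were not searched. The 250 bases before the start are printed 5′ to 3′ on the gene's strand, with CCAAT or its reverse complement ATTGG in capitals, for MSMO1 (chr4:165327419-165327668, plus strand) and SCD (chr10:100346983-100347232, plus strand), which fell, and for SC5D (chr11:121292521-121292770, plus strand) and ELOVL5 (chr6:53348951-53349200, minus strand), which rose.
MSMO1: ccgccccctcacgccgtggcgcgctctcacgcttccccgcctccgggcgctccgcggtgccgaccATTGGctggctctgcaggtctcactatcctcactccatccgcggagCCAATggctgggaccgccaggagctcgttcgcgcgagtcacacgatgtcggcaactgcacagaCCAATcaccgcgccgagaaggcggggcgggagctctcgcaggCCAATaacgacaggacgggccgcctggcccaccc
SCD: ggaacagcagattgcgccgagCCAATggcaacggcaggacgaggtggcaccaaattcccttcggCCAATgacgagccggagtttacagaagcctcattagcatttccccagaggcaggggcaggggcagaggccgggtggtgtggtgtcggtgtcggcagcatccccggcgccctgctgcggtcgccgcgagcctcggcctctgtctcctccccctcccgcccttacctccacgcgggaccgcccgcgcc
SC5D: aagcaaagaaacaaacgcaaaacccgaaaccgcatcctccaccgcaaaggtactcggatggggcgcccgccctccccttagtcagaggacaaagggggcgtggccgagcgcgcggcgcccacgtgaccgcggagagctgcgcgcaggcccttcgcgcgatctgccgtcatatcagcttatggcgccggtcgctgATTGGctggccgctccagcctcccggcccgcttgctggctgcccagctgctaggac
ELOVL5: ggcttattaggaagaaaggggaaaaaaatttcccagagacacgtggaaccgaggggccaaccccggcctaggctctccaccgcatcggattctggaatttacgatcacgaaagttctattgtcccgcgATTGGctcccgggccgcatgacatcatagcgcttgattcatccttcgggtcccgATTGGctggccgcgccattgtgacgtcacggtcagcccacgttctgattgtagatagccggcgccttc
MSMO1 held the letters at 4 places, SCD and ELOVL5 at 2 and SC5D at 1, so these 4 genes, of both directions, carried them. Among the matched genes that were called, ME1 and ACSL4, called higher, and CYP51A1, called lower, had none in their windows. Whether the letters differ between directions was not tested.

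The mevalonate steps were lower in the HMGB2-high libraries (HMGB2 counts 4021 and 2746 against 346 and 319) for 5 of 6 genes, with a median log2 fold change of -0.36. MVD, which decarboxylates mevalonate diphosphate, had 68.5 and 62.4 CPM under the HMGB2 siRNA label and 89.1 and 102 CPM in those labelled scramble. The groups did not overlap, and MVD was 1.45-fold lower (log2 fold change -0.54 ± 0.07, SE, adjusted p = 5.75e-08). ACAT2, the cytosolic thiolase that joins acetyl-CoA units, had 83.9 and 83.0 CPM against 119 and 115 CPM. Its 1.40-fold lower level (adjusted p = 7.51e-08) exceeded the spread of either pair. ACAT2 shares 454 exonic bases with TCP1 and 98 with SOD2, both on the opposite strand, and the strand setting of the counting is not given in the sources used here. IDI1, the isomerase that makes the reactive isoprenoid unit, had 90.4 and 81.7 CPM against 109 and 115 CPM (log2 fold change -0.38 ± 0.07, SE, adjusted p = 2.45e-05). MVK, mevalonate kinase, had 57.0 and 60.1 CPM against 73.4 and 75.1 CPM, and was 1.27-fold lower (adjusted p = 0.000183). HMGCS1, the synthase that makes the precursor of mevalonate, had 82.4 and 83.9 CPM against 97.9 and 103 CPM, and was 1.21-fold lower (adjusted p = 0.00146). All 5 of these genes were lower in both HMGB2-high libraries, an order found for 31.6% of all tested genes. IDI1 overlaps exons of WDR37 and IDI2-AS1 and MVK those of MMAB, on the opposite strand. MVK lost its call without replicate 1 labelled HMGB2 siRNA, and HMGCS1 without either replicate of that label.

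PMVK, phosphomevalonate kinase and the step between MVK and MVD, was the exception. It had 34.2 and 41.5 CPM under the HMGB2 siRNA label and 40.2 and 31.9 CPM in those labelled scramble. The groups overlapped, and the log2 fold change was 0.06 ± 0.09 (SE, adjusted p = 0.679). Without scramble replicate 1 PMVK was called higher, at 0.24 (adjusted p = 0.0242).

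From farnesyl diphosphate to lanosterol, 3 of 4 genes were lower in the HMGB2-high libraries. FDPS, farnesyl diphosphate synthase, had 65.0 and 72.4 CPM in the libraries labelled HMGB2 siRNA against 86.4 and 85.6 CPM in those labelled scramble (log2 fold change -0.33 ± 0.07, SE, adjusted p = 0.000308). SQLE, the squalene epoxidase, which uses molecular oxygen, had 115 and 113 CPM against 134 and 146 CPM and was 1.23-fold lower (adjusted p = 0.000407). LSS, which closes the ring of lanosterol, had 34.6 and 32.7 CPM against 37.4 and 42.9 CPM (adjusted p = 0.0214). The gap for LSS was narrow, and its call was lost without either library labelled HMGB2 siRNA, without scramble replicate 2, with DESeq2 and without a low-count filter. FDFT1, squalene synthase, had 109 and 110 CPM against 103 and 103 CPM, a log2 fold change of 0.09 ± 0.07 (SE) that was not called (adjusted p = 0.362). FDPS overlaps RUSC1-AS1 on the opposite strand, and its call was lost without replicate 1 labelled HMGB2 siRNA. FDFT1 and LSS also have exons on 1 alternative or fix sequence of the assembly each, where reads that match both copies may be left uncounted.

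The steps from lanosterol to cholesterol held the largest fall among the sterol genes and the only one called higher. MSMO1, which oxidises the methyl groups taken off the sterol ring (chromosome 4, 165327669 to 165343164, plus strand), had 72.9 and 68.6 CPM under the HMGB2 siRNA label (HMGB2 counts 4021 and 2746) and 134 and 147 CPM in those labelled scramble (346 and 319). These values were 70.8 ± 3.09 against 141 ± 8.84 CPM (SD, n = 2 each), and MSMO1 was 1.98-fold lower (log2 fold change -0.99 ± 0.07, SE, adjusted p = 1.17e-16). Its promoter letters are the first of those printed above, and it was the only one of the 33 called against a 1.5-fold change (glmTreat, adjusted p = 4.66e-06). SC5D, the desaturase that acts late in the pathway (chromosome 11, 121292771 to 121313410, plus strand), had 101 and 92.3 CPM against 78.4 and 78.8 CPM. Both HMGB2-high libraries were above both HMGB2-low libraries, and SC5D was 1.23-fold higher (log2 fold change 0.30 ± 0.07, SE, adjusted p = 0.000657). The call was lost without replicate 1 labelled HMGB2 siRNA.

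Other enzymes that take methyl groups off the ring had smaller differences. CYP51A1, the lanosterol demethylase that acts before MSMO1, had 146 and 144 CPM in the libraries labelled HMGB2 siRNA against 191 and 207 CPM in those labelled scramble, and was 1.37-fold lower (adjusted p = 1.67e-07). NSDHL, the dehydrogenase that works with MSMO1, had 79.1 and 79.0 CPM against 96.9 and 88.0 CPM (log2 fold change -0.23 ± 0.07, SE, adjusted p = 0.0104). HSD17B7, the ketoreductase of the same complex, had 17.0 CPM in both libraries labelled HMGB2 siRNA and 21.6 and 22.8 CPM in those labelled scramble (adjusted p = 0.00294). These 3 genes separated the groups, as 31.6% of all tested genes did in this direction, while the size of the fall differed. The ratio of MSMO1 to CYP51A1, both per kb of exon, was 0.683 and 0.653 in the HMGB2-high and 0.959 and 0.971 in the HMGB2-low libraries. That pair was chosen after the values of its genes were seen, and no test was made of it. NSDHL and HSD17B7 lost their calls without either library labelled HMGB2 siRNA, and NSDHL also without scramble replicate 1. HSD17B7 has a pseudogene copy, HSD17B7P2, with 40 and 13 counts against 47 and 38, beside 535 and 348 against 476 and 476 counts of HSD17B7 itself. CYP51A1 overlaps an antisense gene with 1 to 6 counts per library.

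The sterol reductases DHCR7 and TM7SF2 were called lower in the HMGB2-high libraries. DHCR7, which makes cholesterol from its last precursor, had 302 and 295 CPM in the libraries labelled HMGB2 siRNA against 384 and 371 CPM in those labelled scramble and was 1.27-fold lower (adjusted p = 3.15e-05). TM7SF2, a reductase that acts next to CYP51A1, had 30.0 and 29.8 CPM against 32.6 and 38.8 CPM (log2 fold change -0.25 ± 0.09, SE, adjusted p = 0.0281), and its call was lost under the same alternatives as that of LSS. EBP, the sterol isomerase, had 77.7 and 78.5 CPM against 75.4 and 69.3 CPM and was not called (log2 fold change 0.11 ± 0.07, SE, adjusted p = 0.261). DHCR7 was the most abundant sterol gene per exon length and separated the groups widely, whereas EBP lay slightly the other way. EBP was called higher without scramble replicate 1. LBR, a nuclear envelope protein that is also a reductase of the same step as TM7SF2, is not one of the 33 and was chosen after its values were seen. It had 134 and 123 CPM against 125 and 133 CPM, the groups overlapped, and it was not called (adjusted p = 0.992).

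The 2 genes that handle sterols differed. STARD4, a soluble carrier that moves cholesterol between membranes, had 7.92 and 9.89 CPM in the HMGB2-high libraries (HMGB2 siRNA label) and 12.2 and 16.6 CPM in the HMGB2-low libraries (labelled scramble). It was 1.63-fold lower (log2 fold change -0.71 ± 0.14, SE, adjusted p = 6.18e-05), although the 2 scramble values lay far apart. Of its 10.1 kb of listed exon, 124 bases overlap STARD4-AS1, with 28 to 42 counts per library. A further overlap of 7082 bases is with CAMK4, with 0 to 5 counts, and both genes lie on the opposite strand. Reads on bases shared by 2 genes may be left uncounted, so the level of STARD4 may be too low. TMEM97, an endoplasmic reticulum protein that binds sterols, had 55.9 and 55.2 CPM against 57.9 and 53.8 CPM. The groups overlapped (log2 fold change -0.01 ± 0.08, SE, adjusted p = 0.958), and TMEM97 shares exonic bases with IFT20 on the opposite strand.

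**Figure D2:**
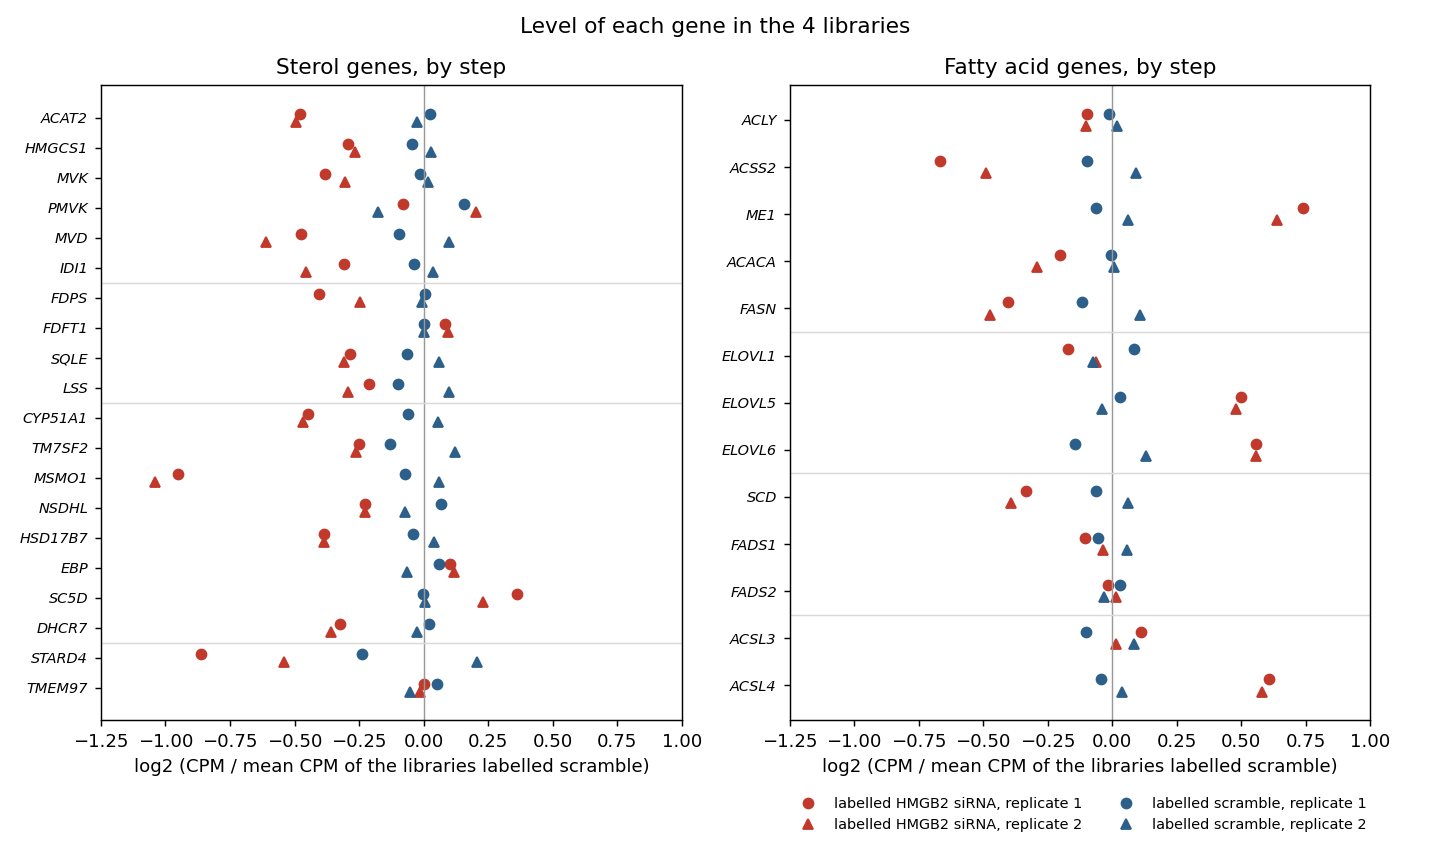
Level of each gene in the 4 libraries, as log2 of its CPM over the mean CPM of the 2 libraries labelled scramble, with lines between the steps of each pathway. Both red symbols (labelled HMGB2 siRNA, HMGB2-high) lie left of both blue symbols for 15 sterol genes and right of them for SC5D, EBP and FDFT1, while fatty acid genes are found on both sides.

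Among the enzymes that supply and build fatty acids, 2 of 5 were lower and 1 was higher in the HMGB2-high libraries (HMGB2 counts 4021 and 2746 against 346 and 319). FASN, the synthase that makes palmitate (chromosome 17, 82078338 to 82098303, minus strand), had 1176 and 1120 CPM under the HMGB2 siRNA label and 1437 and 1676 CPM in those labelled scramble. It was 1.36-fold lower (log2 fold change -0.44 ± 0.07, SE, adjusted p = 1.84e-06). ACSS2, which makes acetyl-CoA from acetate, had 21.1 and 23.9 CPM against 31.3 and 35.7 CPM and was lower (log2 fold change -0.58 ± 0.10, SE, adjusted p = 3.5e-06). FASN and ACSS2 thus moved like most sterol genes. ME1, malic enzyme, a source of the NADPH used in fatty acid synthesis (chromosome 6, 83210402 to 83431078, minus strand), had 122 and 114 CPM against 70.0 and 76.3 CPM. Both HMGB2-high libraries were far above the others, and ME1 was 1.61-fold higher (log2 fold change 0.69 ± 0.07, SE, adjusted p = 2.25e-11), the largest rise among the 33 genes.

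ACLY and ACACA were not called. ACLY, which makes acetyl-CoA from citrate, had 243 and 242 CPM in the libraries labelled HMGB2 siRNA against 258 and 263 CPM in those labelled scramble (log2 fold change -0.10 ± 0.06, SE, adjusted p = 0.236). ACACA, the acetyl-CoA carboxylase, had 132 and 81 against 106 and 101 counts (log2 fold change -0.24 ± 0.20, SE, adjusted p = 0.385). The counts of ACACA were low for a gene of 11.4 kb of exon, and the gene is also listed on 1 alternative sequence of the assembly. Its level and its difference are therefore uncertain.

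Of the 3 desaturases 1 was called lower. SCD, the enzyme that makes monounsaturated fatty acids (chromosome 10, 100347233 to 100364826, plus strand), had 1993 and 1916 CPM in the libraries labelled HMGB2 siRNA against 2407 and 2622 CPM in those labelled scramble. The groups did not overlap, and SCD was 1.29-fold lower (log2 fold change -0.36 ± 0.07, SE, adjusted p = 3.79e-05). FADS1 and FADS2, which desaturate polyunsaturated fatty acids and lie head to head with 142 shared exonic bases, had overlapping groups. FADS1 had 223 and 234 CPM against 231 and 250 CPM (log2 fold change -0.07 ± 0.06, SE, adjusted p = 0.433). FADS2 had 360 and 368 CPM against 372 and 356 CPM (adjusted p = 0.988). Neither difference was detectable at this depth and replication.

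Of the 3 elongation and 2 activation genes, 1 of each was called higher and the other 3 were not called. ELOVL5, which elongates polyunsaturated fatty acids (chromosome 6, 53267404 to 53348950, minus strand), had 322 and 318 CPM in the HMGB2-high libraries (HMGB2 siRNA label) against 233 and 222 CPM in the HMGB2-low libraries (labelled scramble). It was 1.41-fold higher (log2 fold change 0.49 ± 0.06, SE, adjusted p = 1.89e-08). ACSL4, the ligase that activates arachidonate and similar fatty acids, had 93.6 and 91.7 CPM against 59.6 and 63.1 CPM and was 1.51-fold higher (log2 fold change 0.59 ± 0.07, SE, adjusted p = 2.11e-09). For both genes the gap between the groups exceeded the spread within them. ACSL4 overlaps a gene on the opposite strand that had 4 to 9 counts per library. ACSL3, a ligase of lipid droplets, had 109 and 102 CPM against 94.1 and 107 CPM and was not called (log2 fold change 0.07 ± 0.07, SE, adjusted p = 0.508), although it was called higher without scramble replicate 2. ELOVL1, which elongates very long saturated chains, had 104 and 112 CPM against 124 and 111 CPM (adjusted p = 0.17). ELOVL1 was called lower with upper-quartile factors and without scramble replicate 2. ELOVL6, which elongates palmitate, had 63 and 41 against 27 and 31 counts, and its log2 fold change of 0.56 ± 0.31 (SE, adjusted p = 0.178) was not called at this depth. It overlaps a gene on the opposite strand with 0 to 3 counts.

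Summed levels showed how far SCD and FASN set the total of the fatty acid genes. The 20 sterol genes summed to 1629 and 1609 CPM in the HMGB2-high libraries (HMGB2 siRNA label) and 1975 and 2011 CPM in those labelled scramble, a ratio of 0.812. The 13 fatty acid genes summed to 4772 and 4647 CPM against 5322 and 5789 CPM, a ratio of 0.848. Without SCD and FASN, which were chosen after their levels were seen, the other 11 summed to 1603 and 1611 CPM against 1478 and 1490 CPM, a ratio of 1.08. The sums are given as a description. The smallest two-sided p that an exact permutation test of 2 against 2 libraries allows is 0.333.

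Per kb of exon, SCD stood highest at a mean of 426 CPM per kb, followed by FASN at 159, the sterol reductase DHCR7 at 122 and FADS2 at 101. ELOVL5 (73.7), EBP (66.9) and ELOVL1 (66.3) came next. The order of these 3 does not hold in each group: ELOVL5 had 86.8 and 85.6 CPM per kb in the HMGB2-high libraries, above EBP and ELOVL1, but 62.7 and 59.7 in the HMGB2-low libraries, where EBP had 67 and 61.6 and ELOVL1 72.9 and 65.4. The library values of EBP and ELOVL1 overlapped. At the other end were STARD4 at 1.15, ACACA at 0.39 and ELOVL6 at 0.246 CPM per kb. The place of STARD4 is uncertain, because 7082 of its exonic bases overlap CAMK4, and so is that of ACACA. Genes of both pathways lay between these ends.

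**Figure D3:**
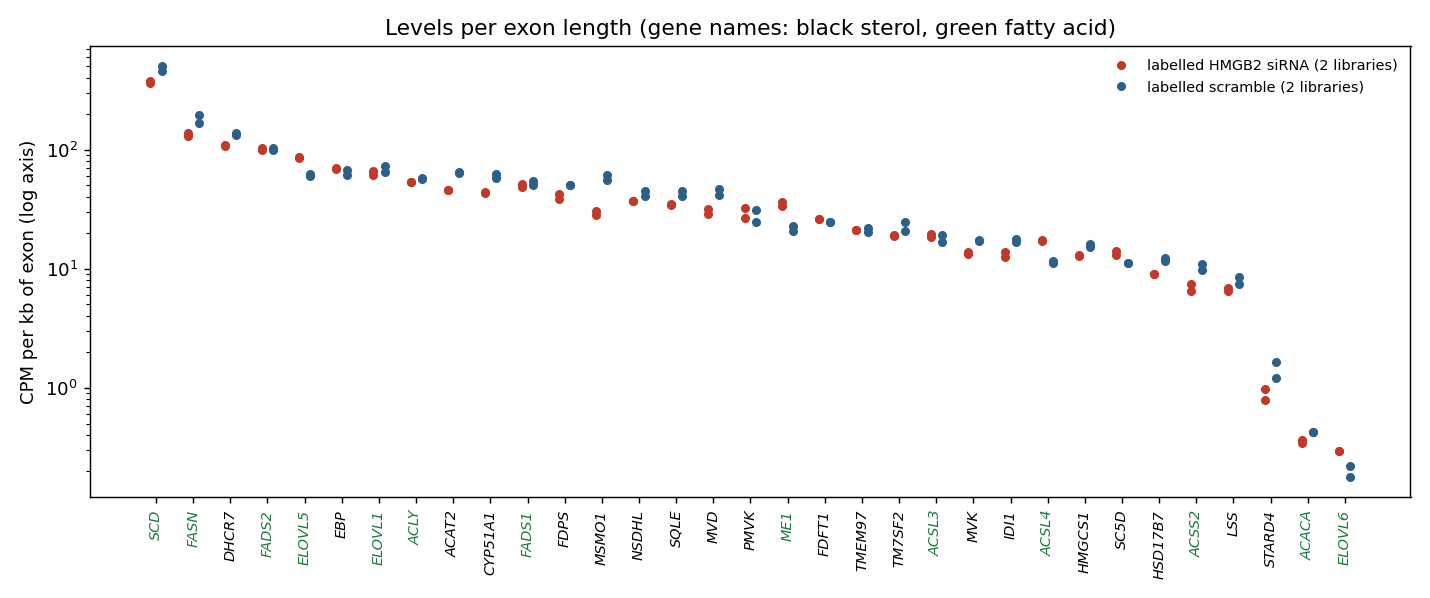
Level of each gene in CPM per kb of exon (log axis), ordered by the mean of the 4 libraries, with names in black for sterol and green for fatty acid genes. SCD lies near 426 CPM per kb and ELOVL6 near 0.246, and most genes fall between 7.35 (LSS) and 159 (FASN).

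Other genes of these pathways, listed apart from the 33, were called in either direction at shares near those of all tested genes (16.7% higher and 14.1% lower). Of 15 further sterol and isoprenoid genes 13 were tested, with 2 called higher and 2 lower in the HMGB2-high libraries, or 15.4% each, and a median log2 fold change of -0.07. ERG28, a scaffold of the demethylation complex that holds NSDHL, had 46.6 and 46.3 CPM in the libraries labelled HMGB2 siRNA against 57.4 and 57.2 CPM in those labelled scramble and was 1.23-fold lower (adjusted p = 0.00155). GGPS1, which makes geranylgeranyl diphosphate, was 1.17-fold lower (adjusted p = 0.0092). NUS1, a subunit of the dolichol-forming enzyme, was 1.20-fold higher (adjusted p = 0.00213). COQ2, an enzyme of ubiquinone synthesis, had 38.2 and 35.9 CPM against 29.8 and 29.4 CPM (log2 fold change 0.33 ± 0.09, SE, adjusted p = 0.00297). GGPS1 overlaps exons of ARID4B on the opposite strand. Of 25 further fatty acid genes 21 were tested, with 3 higher and 3 lower, or 14.3% each, and a median of -0.00. ELOVL2, a polyunsaturated fatty acid elongase like ELOVL5, had 65.9 and 68.3 CPM against 46.2 and 42.7 CPM and was 1.51-fold higher (adjusted p = 1.48e-08). TECR, the reductase of the elongation cycle, and HACD2, its dehydratase, were 1.28-fold (adjusted p = 8.62e-05) and 1.20-fold higher (adjusted p = 0.00182). HSD17B12, its ketoreductase, was lower (log2 fold change -0.32 ± 0.07, SE, adjusted p = 0.000179). TECR and HSD17B12 overlap exons of another gene on the opposite strand.

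Regulators of sterol synthesis mostly showed no call: 2 of 10 tested were higher and 1 was lower in the HMGB2-high libraries. SREBF2 had 110 and 111 CPM in the libraries labelled HMGB2 siRNA against 124 and 129 CPM in those labelled scramble (log2 fold change -0.19 ± 0.07, SE, adjusted p = 0.02), and it overlaps SHISA8 and an antisense gene. INSIG1, which retains SREBP in the endoplasmic reticulum, had 186 and 179 CPM against 85.7 and 99.8 CPM and was 1.97-fold higher (adjusted p = 2.08e-16). MYLIP, a ubiquitin ligase of lipoprotein receptors, was 1.36-fold higher (adjusted p = 0.00327). The ratio of INSIG1 to MSMO1, both per kb, was 2 and 2.04 in the HMGB2-high and 0.5 and 0.532 in the HMGB2-low libraries. This pair was chosen after the values of its genes were seen, so the gap restates their opposite fold changes. Among 9 tested genes of cholesterol export, transport and storage, 3 were higher (33.3%) and 1 was lower (11.1%), beside the same 16.7% and 14.1%. ABCA1, which exports cholesterol, had 14.1 and 12.4 CPM against 8.54 and 8.06 CPM and was 1.61-fold higher (adjusted p = 5.12e-05). APOE, a lipoprotein component (adjusted p = 0.0357), and NPC1, a lysosomal cholesterol transporter (adjusted p = 0.0383), were 1.13-fold higher each, and NPC1 overlaps RMC1. LIPA, the lysosomal lipase that frees cholesterol from its esters, was 1.40-fold lower (adjusted p = 3.19e-08).

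**Figure D4:**
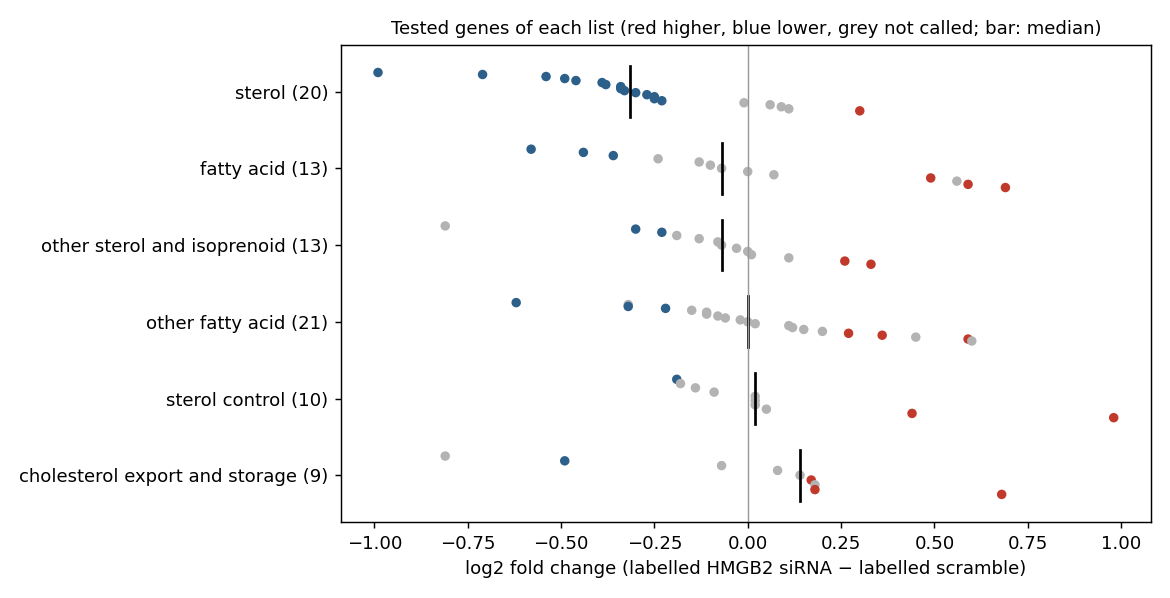
Log2 fold change (labelled HMGB2 siRNA minus labelled scramble) of each tested gene in the 2 member lists and 4 other lists of the pathways, with the number tested in brackets and a bar at the median. The sterol list has its median at -0.31, and the medians of the other lists lie between -0.07 and 0.14.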

How the data were processed

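The authors deposited unnormalized read counts per gene, 1 table for each of the 4 libraries, and the exon coordinates and length of each gene, per the file headers. STAR, SAMtools 1.9, featureCounts of Subread 1.6.3, DESeq2 and the human build hg38 (GRCh38) are named in the submitters' processing notes. Strand, multimapping and overlap settings are not given in the sources used here. The 4 tables each held 54628 genes and 0 rows without a gene name. Samples were grouped by their labels and never regrouped.

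Counts were tested with edgeR 4.0.16 (quasi-likelihood, R 4.3.3), fitted on the label group without covariates, after TMM scaling and filterByExpr (smallest count 10, smallest total 15), which left 15161 genes. Adjusted p-values are by Benjamini-Hochberg over all of them. SE is the log2 fold change over the square root of F. CPM used TMM-scaled totals, and lengths are exonic bases on the primary chromosome. Replicates were further apart than counting noise alone gives (chi-square per degree of freedom 3.14 and 5.72). The test was tried before use on simulated data with known changes and the same dispersion for every gene. It recovered 46.8% of 1.25-fold and 82.0% of 1.5-fold changes among tested genes, so a gene not called may still differ.

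Members, lists and tests were chosen with earlier results of these data known. All 33 members are reported, and of each other list at most 4 genes with the smallest p. LBR and SREBF1 were added to these after their values were seen. Some enzymes of both pathways are not analysed here. Tried as alternatives were scaling by RLE, upper quartile or total counts, other filters, DESeq2 1.42.0, limma-voom (limma 3.58.1), a replicate block, glmTreat and leaving out each library. Thinned libraries, and lists without genes that overlap others or lie on alternative sequences, were added after seeing the data. Scripts used Python 3.11.15, NumPy 2.4.6, pandas 2.3.3 and matplotlib 3.10.9.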

Additional observations from a re-analysis of the deposited data

How the results depend on the processing

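Of the 22 genes called, 14 were called in the same direction under all 13 alternatives other than the test against a 1.5-fold change, among them MSMO1, MVD, ACAT2, CYP51A1, STARD4, FASN, SCD, ME1, ELOVL5 and ACSL4. That test (glmTreat) called 1 sterol gene lower and 0 higher, and 0 fatty acid genes lower and 0 higher; over all genes it called 213 higher and 45 lower, against 2536 and 2135. Leaving out 1 library at a time gave 8 to 14 sterol genes lower and 0 to 3 higher, with medians from -0.34 to -0.29, and a fatty acid median from -0.09 to -0.03. Without replicate 1 labelled HMGB2 siRNA 1481 genes were called higher and 903 lower over all genes, and without replicate 2 of that label 1603 and 1024. Upper-quartile factors and total counts gave medians of -0.36 for the sterol and -0.12 for the fatty acid genes. Without the genes that overlap another gene, 9 of 13 sterol genes were lower, with medians of -0.25 and -0.13, and without genes on alternative sequences the fatty acid median was -0.04. Shorter lists hold fewer genes to call, and the cause of these shifts was not tested. Some genes that were not called changed sign: TMEM97 (0.01) and FADS2 (0.02) without a low-count filter, and, when 1 library was left out, PMVK (-0.10 to 0.24), TMEM97 (-0.06 to 0.05), FADS2 (-0.03 to 0.04) and ACSL3 (-0.01 to 0.17). The replicate block left the counts at 15 sterol genes lower and 1 higher and 3 fatty acid genes in each direction. Same-numbered libraries share only a number (correlation of their deviations -0.0144). ELOVL6 and ACACA had low counts, and whether depth kept them from being called was not tested.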

Other observations

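Ratios between genes within a library, which do not depend on how libraries are scaled, separated the labelled groups inside both pathways. MSMO1 stood at 2.13 and 2.18 times SC5D per kb of exon in the HMGB2-high libraries (HMGB2 siRNA label) and at 5.03 and 5.48 times in those labelled scramble. FASN stood at 3.81 and 3.88 times ME1 against 8.09 and 8.67 times, and SCD at 4.38 and 4.27 times ELOVL5 against 7.31 and 8.38 times. ACSS2, which draws on acetate, stood at 0.122 and 0.139 times ACLY, which draws on citrate, against 0.171 and 0.191 times. These pairs were chosen after the values of their genes were seen, so the gaps restate the differing fold changes of those genes. No test was made of the pairs.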
